A study of Drosophila melanogaster with 90 samples.

Results

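Dfsov/sov2 females carry a deletion of the gene small ovary (sov) over the allele sov2. In their ovaries 45 of 17493 annotated genes, chosen by the rule below, had much lower levels than in w1118/w1118 ovaries. A gene was taken when its mean in Dfsov/sov2 replicates 1 and 2 was at most 1/16 of its mean in 3 w1118/w1118 libraries, and that w1118/w1118 mean was at least 20 CPM (its count scaled to the sum of all gene counts of the library). The major chorion and vitelline membrane genes and the yolk protein genes, whose symbols start with Cp7F, Cp1, Cp3, Vm or Yp, and also psd and Cad74A, were left out by name: 61 genes met the limits, and 16 of these were set aside. Of the 45, 44 code for proteins and 1, lncRNA:CR43250, does not. The genes were thus chosen by their CPM in w1118/w1118 and Dfsov/sov2, so their values in those 2 genotypes are a description, and tests were run on the other genotypes only.

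Ovaries of adult Drosophila melanogaster, taken 4 to 5 days after eclosion and kept at 25 °C, gave the polyA RNA that was sequenced; 15 ovaries were pooled in a sample, and each of 30 genotypes had 3 samples. The sterile mutants, by the labels, were sovML150/sov2, sovML150/KG00226, sovEA42/sov2, sovEA42/KG00226, NP6070/NP6070, Dfsov/KG00226 and Dfsov/sov2. Fertile mutants were KG00226/KG00226 and both written orders of sov2 with NP6070, of sov2 with KG00226 and of NP6070 with KG00226. The reference animals carried a w1118 chromosome: both written orders of KG00226, NP6070 and sov2 with w1118, then Dfsov/w1118, sovEA42/w1118, sovML150/w1118 and w1118/w1118. Dfsov is a deficiency written Df(1)sov, KG00226 is a P{SUPor-P} insertion on a y1 chromosome, NP6070 is a P{GawB} insertion on a y w chromosome, and the sov2 chromosome also carries y, cv, v and f. In RNA interference (RNAi) females a Gal4 driver expressed a hairpin against sov (TRiP.HMC04875, inserted at attP40) or against mCherry (VALIUM20-mCherry, inserted at attP2), so that hairpin and insertion site changed together. The drivers were da-Gal4 (da.G32, broadly active), nos-Gal4 (MVD1, active in the germline) and tj-Gal4 (NP1624, active in somatic cells of the ovary). The labels call the sov RNAi females sterile and the mCherry RNAi females fertile.

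In the fly ovary, somatic follicle cells surround each germline cyst and, late in oogenesis, secrete the eggshell in layers: the vitelline membrane first, then the wax layer and the chorion. Several genes for eggshell proteins are copied extra times in these cells, by local amplification of their DNA, before they are transcribed. Mature follicle cells then take part in ovulation, and among the products they are known for is the relaxin-like peptide Ilp8. In whole ovaries, fewer late egg chambers and less RNA per follicle cell cannot be told apart.

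The 45 genes spanned a wide range in w1118/w1118 ovaries. The gene yellow-g (FBgn0041709), which encodes a Yellow-family protein needed for a rigid eggshell, had 2.90 and 7.08 CPM in Dfsov/sov2 replicates 1 and 2, and 857, 1172 and 956 CPM in w1118/w1118. That left 0.501% of its w1118/w1118 level. Its relative yellow-g2 (FBgn0035328) averaged 4.09 CPM in Dfsov/sov2 and 622 ± 141 CPM in w1118/w1118 (SD, n = 3 for w1118/w1118 here and below). Other abundant members were Mur2B, a mucin-related gene with 33.5 CPM in Dfsov/sov2 and 901 ± 132 CPM in w1118/w1118, and CG4009, a peroxidase-family gene with 4.62 CPM in Dfsov/sov2 and 580 ± 151 CPM in w1118/w1118. Femcoat (FBgn0041252), an eggshell component, averaged 2.77 CPM in Dfsov/sov2 and 420 ± 43.9 CPM in w1118/w1118. Among the 10 highest, CG15570, CG14309, CG13083, CG13114, CG13084 and CG11381 are known by number only, and they kept between 0.125% (CG13083) and 2.29% (CG14309) of their w1118/w1118 level. Per kilobase of exon, w1118/w1118 levels ran down from 740 CPM per kb for yellow-g and 714 for CG13083 to 5.41 for pwn (pawn), 4.85 for Dscam4, an immunoglobulin-family adhesion gene, and 3.08 for Cad88C, a cadherin gene.

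CG15571 and CG43965 had no count in Dfsov/sov2 replicates 1 and 2, where 3 counts would be 0.317 CPM. The members nearest the limit kept 5.13% (CG14187), 5.19% (Nha1, a sodium/proton antiporter gene), 5.56% (the cytochrome P450 gene Cyp4s3) and 5.80% (drd, a putative acyltransferase gene). Just outside it stood CG2233 with 6.72%, ndl (nudel, a protease gene of the eggshell) with 6.95%, CG13992 with 7.14% and CG9747 with 7.22%. Just under the level limit, CG6508 averaged 19.7 CPM in w1118/w1118. Dfsov/sov2 replicate 3 was left out because only 16486 of its reads were assigned to genes. In it the 45 genes summed to 2366 CPM from 39 counts (exact Poisson 95% interval 1682 to 3234 CPM, covering counting error only), against 105.0 and 215.7 CPM in replicates 1 and 2 and a w1118/w1118 mean of 12327. With all 3 Dfsov/sov2 libraries averaged, 41 genes would meet the rule, 33 of them among the 45.

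**Figure D1:**
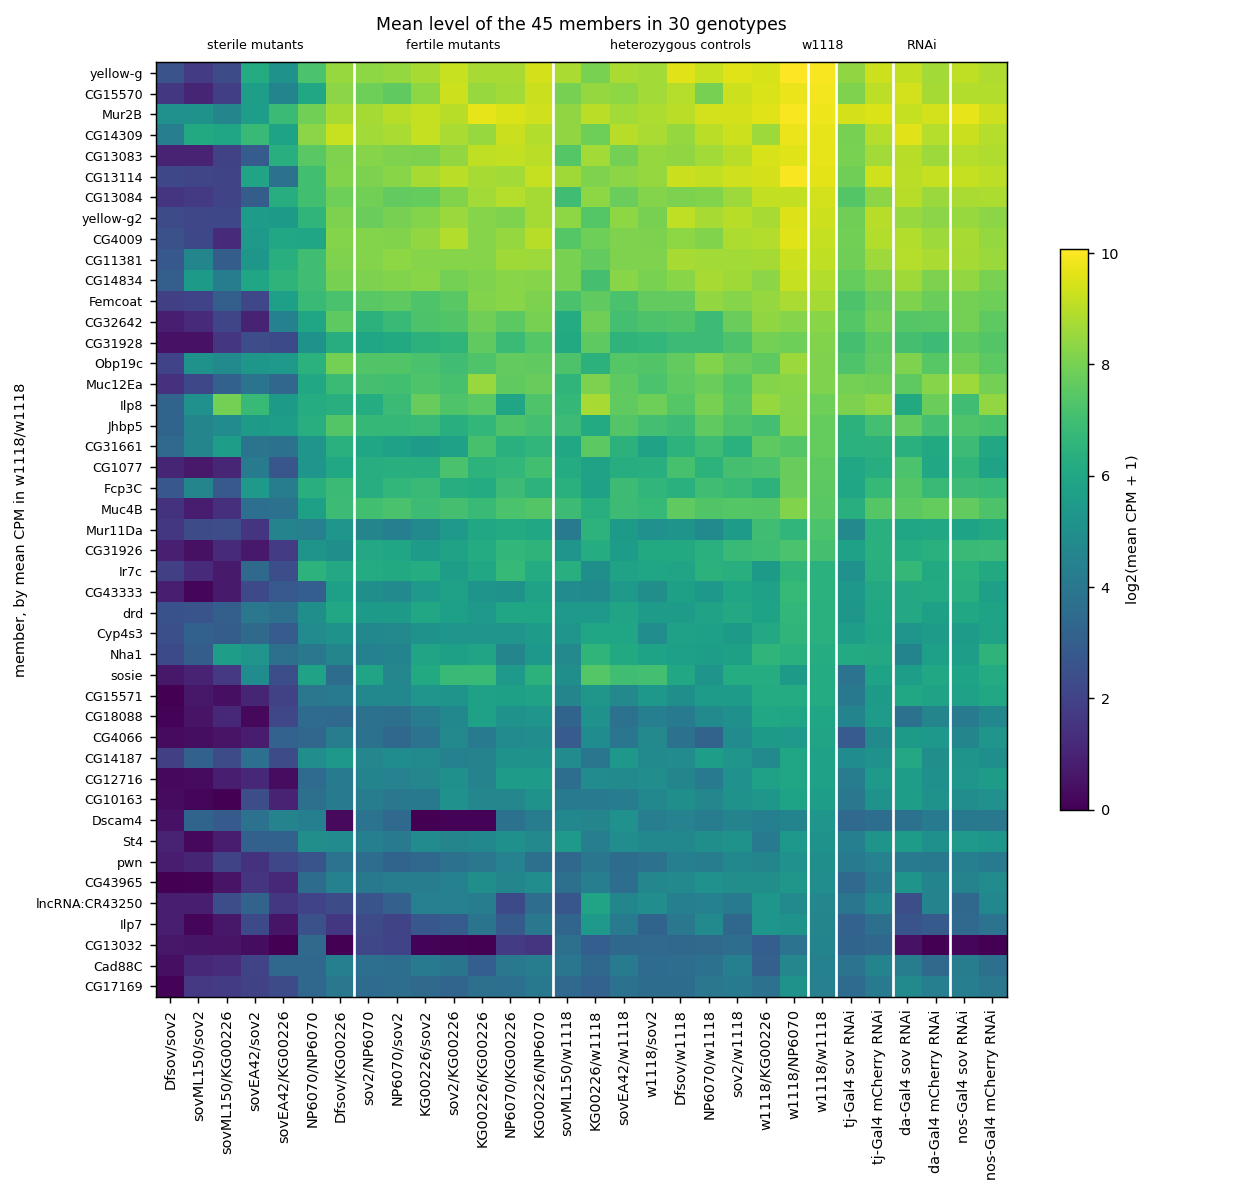
Mean level of each of the 45 genes (down, ordered by level in w1118/w1118) in each of the 30 genotypes (across), as log2(mean CPM + 1) without the 3 libraries under 100000 gene counts. Most genes are dark in the leftmost sterile genotypes and lighter in Dfsov/KG00226 and in the fertile mutants. Dscam4 and CG13032 are dark in Dfsov/KG00226 and in some of the fertile mutants.

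By position, the X chromosome held 17 of them (37.8%), against 18.6% of the 5554 genes with at least 20 CPM in w1118/w1118, and chromosome arm 2R held 2 (4.44%, against 19.4%). Their median exonic length was 1584 bases, against 2388 bases over the 5554 genes. Several sat side by side in the release 6 assembly. The genes yellow-g (3L, 2269881 to 2272769, minus strand) and yellow-g2 (3L, 2276550 to 2278038, plus strand) lie 3781 bases apart in a region known to be amplified in follicle cells. On the X, CG15571, CG15570, Femcoat and the mucin-related gene Muc4B follow one another between 4216873 and 4246139 with no other protein-coding gene between them. The pairs CG31926 and CG31661, CG13084 and CG13083, CG32642 and Mur11Da, and Cyp4s3 and drd were also direct neighbours, at gaps of 172, 958, 7098 and 9211 bases. The lncRNA:CR43250 (3L, 17033119 to 17033676) lies 1039 bases from Ilp8 (3L, 17029812 to 17032080) on the same strand.

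Libraries held between 2110 and 13164806 gene counts (median 4346725), and 3 under 100000 were left out of all tests: Dfsov/sov2 replicate 3, sovML150/KG00226 replicate 2 and sov2/w1118 replicate 1. The lowest of the other 87 held 932267. In sovML150/KG00226 replicate 2 the 45 genes summed to 6507 CPM, against 605 and 611 in its other replicates, and that library also lacked their muscle signal (221 CPM over 8 muscle genes, against 4287 and 2452). Transcripts of sov itself did not fall with every label. They were lower than in matched heterozygotes in Dfsov/KG00226 (log2 change -0.51 ± 0.09, SE, adjusted p = 8.62e-06, edgeR's quasi-likelihood test with Benjamini-Hochberg adjustment, used for every adjusted p below) and higher in sovML150/sov2 (0.96 ± 0.08, adjusted p = 1.87e-14). They fell in libraries labelled da-Gal4 sov RNAi (-0.49 ± 0.12, adjusted p = 0.00634), rose in those labelled tj-Gal4 sov RNAi (0.50 ± 0.11, adjusted p = 0.00501) and differed little with nos-Gal4 (0.06 ± 0.12, adjusted p = 0.907).

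Sterile mutants had far less of these transcripts than heterozygotes. Summed over the 45 genes, sovML150/sov2 averaged 384 ± 353 CPM, sovEA42/sov2 1012 ± 1342 CPM, sovEA42/KG00226 1084 ± 1119 CPM, NP6070/NP6070 2805 ± 503 CPM and Dfsov/KG00226 5530 ± 717 CPM (SD, n = 3 each), and sovML150/KG00226 averaged 608 CPM over 2 libraries. The 7 fertile mutants ranged from 4951 CPM (sov2/NP6070) to 8322 CPM (KG00226/NP6070), and the 9 heterozygotes from 4695 CPM (sovML150/w1118) to 13400 CPM (w1118/NP6070). So Dfsov/KG00226 alone of the sterile genotypes lay within the range of the heterozygotes, and w1118/w1118, at 12327 ± 1570 CPM, lay near its top. The genes were also chosen in w1118/w1118, which ranked first among the 10 genotypes with a w1118 chromosome for 9 of the 45 and second for 22. The comparisons below use the heterozygotes and not w1118/w1118.

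**Figure D2:**
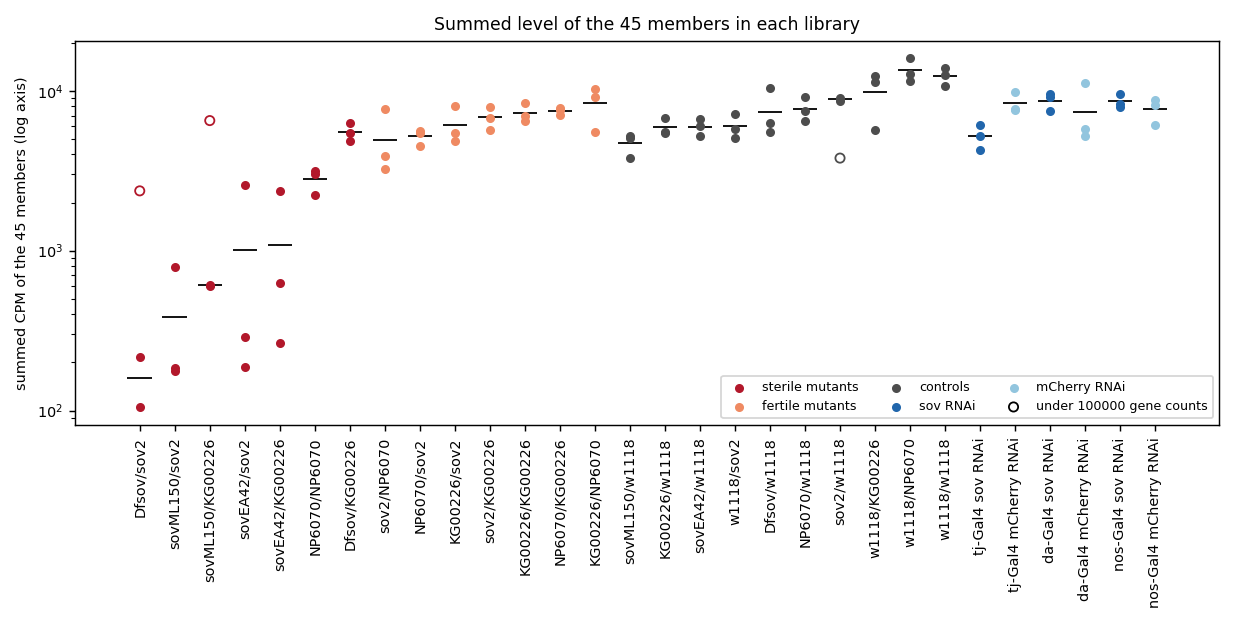
Summed CPM of the 45 genes (log axis) in each library, by genotype, with the mean of each genotype as a line and libraries under 100000 gene counts as open circles. Among filled points, sterile mutants other than Dfsov/KG00226 lie below the fertile mutants and the controls, and 1 library each of sovEA42/sov2, sovEA42/KG00226 and sovML150/sov2 lies above its fellows. The open circles of Dfsov/sov2 (2366 CPM) and sovML150/KG00226 (6507 CPM) lie above the filled points of those genotypes.

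Across the 6 sterile genotypes that did not choose the genes, 39 of the 45 were lower than in the 9 heterozygous genotypes and none was higher, with counts summed per genotype; over all 8457 features tested (8340 genes and 117 transposable elements), 15.7% were lower and 21.2% higher. The median log2 change of the 45 was -2.25, with a range from -3.69 to -1.03 and a median near 0 over all features. The eggshell genes were among them. Levels of yellow-g ran from 2.48 CPM in sovML150/sov2 over a median of 53.1 to 362 CPM in Dfsov/KG00226 in sterile genotypes, and from 261 over a median of 593 to 1073 CPM in heterozygotes. Dfsov/KG00226 was the only sterile genotype within the range of the heterozygotes, and the change was -2.73 ± 0.67 (SE, adjusted p = 0.00316). Changes of the same order were found for yellow-g2 (-2.62 ± 0.63, adjusted p = 0.0026), CG4009 (-2.35 ± 0.66, adjusted p = 0.0081) and Femcoat (-2.52 ± 0.63, adjusted p = 0.00333). Femcoat was 1 of only 5 members whose genotype means did not overlap between sterile mutants (3.12 to 143 CPM, the highest in Dfsov/KG00226) and heterozygotes (143 to 440 CPM, the lowest in sovML150/w1118), and the gap between the ranges was narrow. The other 4 were CG31926, CG15571, CG10163 and Ilp7; over all features tested, 0.709% lay wholly below. Fcp3C, which encodes a follicle cell protein, changed less (-1.34 ± 0.50, adjusted p = 0.0401).

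All 4 mucin-related genes were lower in sterile mutants: Mur2B (-2.25 ± 0.50, adjusted p = 0.00128), Muc12Ea (-2.74 ± 0.58, adjusted p = 0.000835), Muc4B (-2.37 ± 0.60, adjusted p = 0.0036) and Mur11Da (-2.20 ± 0.56, adjusted p = 0.00382). The strongest fall among all members was that of the insulin-like peptide gene Ilp7 (FBgn0044046). It averaged between 0.133 and 4.63 CPM in sterile genotypes, between 3.24 and 15.4 CPM in fertile mutants and between 8.56 and 43.1 CPM in heterozygotes, and the sterile genotypes lay below the heterozygotes without overlap (-3.69 ± 0.62, adjusted p = 8.72e-05). It was followed by CG18088 (-3.04 ± 0.67, adjusted p = 0.00123), CG31928 (-3.00 ± 0.68, adjusted p = 0.00148), lncRNA:CR43250 (-3.00 ± 0.53, adjusted p = 0.000148), CG31926 (-2.89 ± 0.66, adjusted p = 0.0017) and CG13114 (-2.85 ± 0.68, adjusted p = 0.00247). Ilp8 (FBgn0036690) itself changed by -1.50 ± 0.43 (adjusted p = 0.00989).

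Other members that fell, named by role after their values were seen, were Cyp4s3 (-1.86 ± 0.35, adjusted p = 0.000237), Nha1 (-1.64 ± 0.42, adjusted p = 0.00385), drd (-1.44 ± 0.40, adjusted p = 0.00702), the odorant-binding family gene Obp19c (-1.57 ± 0.48, adjusted p = 0.0128) and Jhbp5, of the juvenile hormone-binding family (-1.42 ± 0.42, adjusted p = 0.012). The transmembrane protein gene sosie, known from the follicle epithelium, changed by -2.38 ± 0.64 (adjusted p = 0.00619). The smallest changes that passed were those of CG17169 (-1.32 ± 0.43, adjusted p = 0.0193) and the sulfotransferase gene St4 (-1.33 ± 0.51, adjusted p = 0.0461), and the call for St4 was lost in 19 of 23 refits that each left out 1 genotype or library. Those that did not pass were CG14309 (-1.35 ± 0.53, adjusted p = 0.051), CG13032 (-2.43 ± 0.97, adjusted p = 0.0532), CG14187 (-1.22 ± 0.50, adjusted p = 0.0585), Cad88C (-1.13 ± 0.47, adjusted p = 0.0644), Ir7c, an ionotropic receptor family gene (-1.19 ± 0.62, adjusted p = 0.136), and Dscam4 (-1.03 ± 0.79, adjusted p = 0.319).

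**Figure D3:**
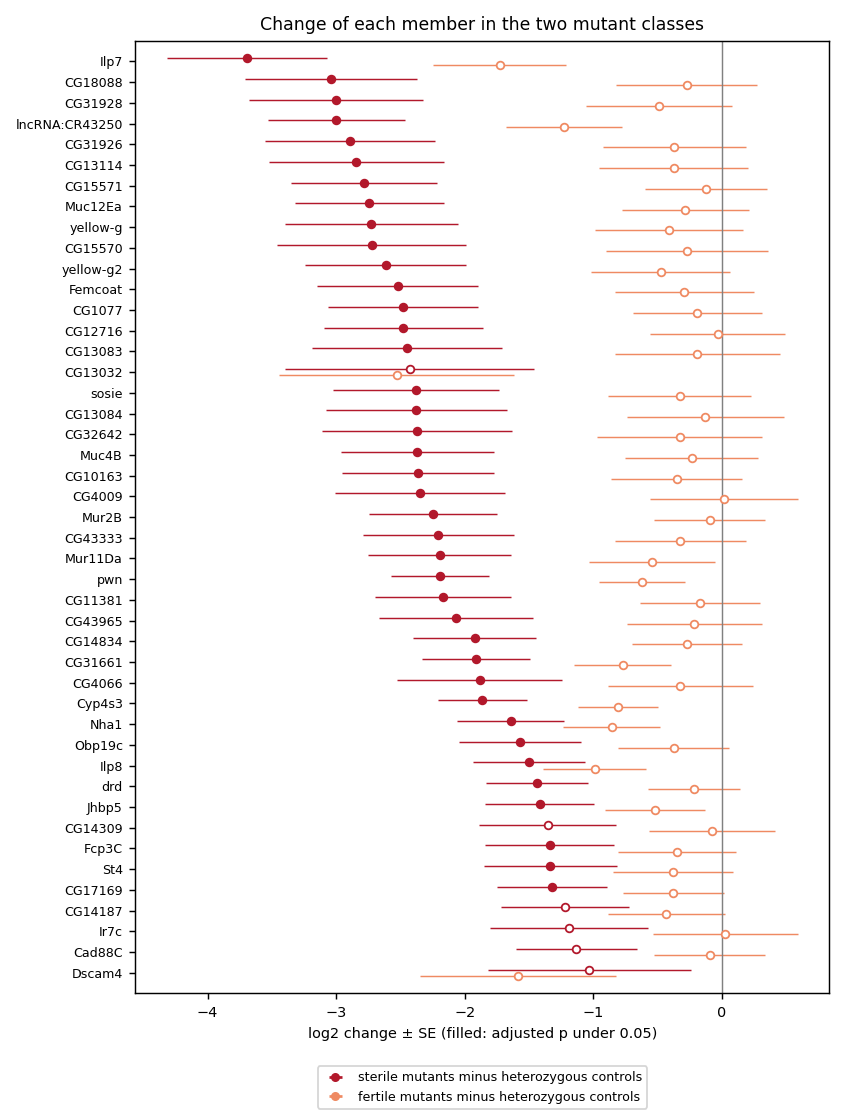
Log2 change ± SE of each of the 45 genes in the sterile mutants and in the fertile mutants, each against the 9 heterozygous genotypes, with filled points where the adjusted p was under 0.05. All 45 sterile-mutant points lie below 0 and 39 are filled, while no fertile-mutant point is filled.

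Against the same heterozygotes, the 7 fertile mutant genotypes showed no member past the threshold, against 0.816% of all features lower and 2.07% higher. Their median change was -0.33, 6 members were lower at an unadjusted p under 0.05, where 15.8% of all features passed in either direction, and DESeq2 called 1 lower, as did the edgeR fits without NP6070/NP6070 or without sovML150/sov2. The 6 were Ilp7 (-1.73 ± 0.52, adjusted p = 0.0749), lncRNA:CR43250 (-1.23 ± 0.45), Ilp8 (-0.99 ± 0.40), Nha1 (-0.85 ± 0.38), Cyp4s3 (-0.81 ± 0.31) and CG13032 (-2.53 ± 0.91). Set directly against the fertile mutants, the sterile mutants were lower for 31 members and higher for none (11.0% of all features lower, 18.1% higher), with a median of -1.88. Ilp8, Nha1, Fcp3C and Ir7c were among the 14 that did not pass in that comparison. The heterozygotes are shared by the sterile and the fertile comparison, so the 2 sets of changes are not independent. Within the classes, both written orders of an allele pair counted as separate genotypes, and several genotypes shared an allele. The genotype sums were thus not fully independent replicates.

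Other ovary genes moved less uniformly in the sterile class, where 15.7% of all features were lower and 21.2% higher. Of a list of 16 other eggshell genes, 5 of them members, 13 were tested and 8 were lower: the 5 members yellow-g, yellow-g2, Femcoat, Fcp3C and CG4009, and also ndl (-1.40 ± 0.46, adjusted p = 0.0208), Cad99C (-0.69 ± 0.25, adjusted p = 0.0353) and clos (-0.52 ± 0.18, adjusted p = 0.0255). The list's median was -0.76, which includes the 5 members, genes chosen for their low level in Dfsov/sov2. Of 18 regulators of late follicle cells, 6 were lower and 1 was higher (median -0.10), with mirr (-1.08 ± 0.17, adjusted p = 3.57e-05) and br (-1.23 ± 0.28, adjusted p = 0.00175), both transcription factor genes, falling most. Of 10 tested genes of chorion gene amplification, 7 were lower and none was higher, with a median of -0.28; Orc2, a subunit gene of the origin recognition complex, fell by 0.71 ± 0.17 on the log2 scale (adjusted p = 0.00288). Of 5 tested genes of mature follicles and ovulation, Sec24CD was lower and the metalloproteinase gene Mmp2 and its inhibitor gene Timp were higher (median 0.31).

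Markers of other tissues rose beside these losses, in a class where 21.2% of all features were higher and 15.7% lower. Of 7 tested muscle genes all 7 were higher in the sterile class (median 3.56), as were 2 of 2 hemocyte genes (median 5.14), 2 of 3 fat body genes (4.48), 2 of 2 neuronal genes (2.79) and 3 of 4 genes of oviduct and sperm stores (2.31). The oviduct list shared Mmp2 and Oamb with the list of mature follicles and ovulation, so Mmp2 counted in both. In w1118/w1118 ovaries Mmp2 averaged 36.3 CPM and Oamb 47.5 CPM. The muscle list summed to between 176 and 8627 CPM in the 17 sterile libraries tested, against 93.1 to 363 CPM in the 26 heterozygous ones, and the hemocyte list to between 7.95 and 1648 CPM, against 2.50 to 30.9 CPM. Among the muscle genes Act88F was at 0 in 5 of 17 sterile libraries and in 8 of 26 heterozygous ones, and among the hemocyte genes NimC1, He and eater were at 0 in 2, 10 and 2 of the 17 and in 18, 25 and 15 of the 26. The fat body list did not rise in sum. Its genotype means ran from 214 to 671 CPM (median 455) in sterile mutants and from 342 to 643 CPM (median 444) in heterozygotes. In w1118/w1118 ovaries FASN1 of that list averaged 384 CPM and Lsp1beta 0.314 CPM. General follicle cell markers were lower for 4 of 8 genes and higher for 1 (median -0.67), and germline markers lower for 5 of 8 and higher for 1 (median -0.41). The part of these tissues in the fall of the 45 genes was not tested across the class. In NP6070/NP6070, none of 7 muscle, 4 hemocyte and 8 follicle cell markers passed in either direction. There 1 of 3 fat body genes (median 4.31) and 2 of 3 neuronal genes (median 1.04) were higher, 1 of 5 oviduct genes was higher and 1 lower, and 3 of 8 germline markers were lower and 1 higher.

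Each sterile genotype was then compared with heterozygotes of its own alleles, library by library. These 6 comparisons share heterozygous libraries, so their counts are not independent. In sovML150/sov2 all 45 members were lower (median log2 change -5.48; 29.5% of all features were lower and 33.2% higher), and in sovML150/KG00226 43 were (median -4.69; 23.9% lower and 28.2% higher), or 33 without its replicate 3, which leaves 1 library. In sovEA42/sov2 42 were lower (median -2.93; 16.2% lower and 23.5% higher) and in sovEA42/KG00226 43 (median -3.02; 17.1% lower and 21.3% higher). Both sovEA42 genotypes held 1 library, replicate 3, with 2560 and 2359 CPM over the 45 genes, against 287 and 188 CPM and 264 and 630 CPM in their other libraries; without it the medians were -6.25 (45 lower) and -4.03 (41 lower). In NP6070/NP6070 36 were lower (median -1.78; 12.3% lower and 13.8% higher), or 27 without its replicate 3. In Dfsov/KG00226 15 were lower and 1, Cad88C, was higher (median -0.77; 18.6% of all features lower and 21.3% higher). The number higher was 3 without KG00226/w1118 replicate 3 and 0 without Dfsov/KG00226 replicate 1.

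**Figure D4:**
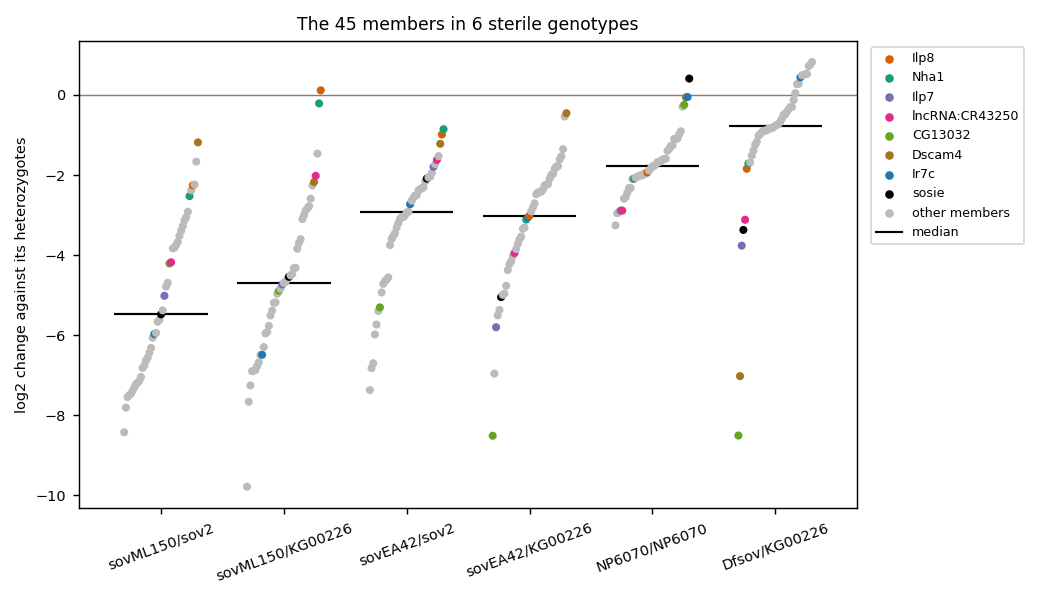
Log2 change of each of the 45 genes against heterozygotes of the same alleles in 6 sterile genotypes, with the median as a line and 8 members in colour. The medians run from -5.48 in sovML150/sov2 to -0.77 in Dfsov/KG00226, and the coloured members change places between genotypes; the lowest point of CG13032 in Dfsov/KG00226 and sovEA42/KG00226 rests on libraries with no count.

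Among the eggshell genes, the genotype with the largest fall was sovML150/sov2 for yellow-g (-7.81) and yellow-g2 (-7.47), sovML150/KG00226 for CG4009 (-7.66) and Fcp3C (-4.51), and sovEA42/sov2 for Femcoat (-5.98). Levels of yellow-g were 3.22, 1.69 and 2.53 CPM in sovML150/sov2, 3.57, 3.0 and 210 CPM in sovEA42/sov2, 0, 15.2 and 86.8 CPM in sovEA42/KG00226, 127, 200 and 119 CPM in NP6070/NP6070 and 412, 399 and 274 CPM in Dfsov/KG00226. Replicate 3 was the highest in both sovEA42 genotypes, and in sovEA42/sov2 it exceeded all 3 NP6070/NP6070 libraries, which in turn lay below all 3 of Dfsov/KG00226. The change was -2.45 ± 0.57 in NP6070/NP6070 (adjusted p = 0.00109) and -0.84 ± 0.51 in Dfsov/KG00226 (adjusted p = 0.188). Femcoat gave 3.32, 3.30 and 3.48 CPM in sovEA42/sov2, where replicate 3 did not stand out, and 7.14, 1.91 and 142 CPM in sovEA42/KG00226, where it did. In NP6070/NP6070 Femcoat was at 139, 122 and 73.4 CPM, all below the 6 heterozygous libraries of that allele at 291 to 517 CPM (-1.84 ± 0.48, adjusted p = 0.003). How many of all features separated in this way was not counted. The member with the largest fall in NP6070/NP6070 was CG43333, at 6.49, 8.61 and 5.81 CPM, against 26.3 to 119 CPM in the heterozygotes (-3.26 ± 0.49, adjusted p = 9.97e-07).

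The 15 genes that fell in Dfsov/KG00226 did not include the abundant eggshell genes. They were CG31928, Muc12Ea, Ilp8, CG31926, Cyp4s3, Nha1, sosie, CG15571, CG18088, CG12716, CG10163, Dscam4, lncRNA:CR43250, Ilp7 and CG13032. Ilp7 had 1.8, 2.34 and 2.04 CPM in Dfsov/KG00226, against 23.3, 14.3 and 8.55 CPM in Dfsov/w1118 and 9.36 to 61 CPM in the KG00226 heterozygotes. Every mutant library was below every heterozygous one (-3.76 ± 0.67, adjusted p = 1.36e-05), but the share of all features separated in this way was not counted. The lncRNA:CR43250 gave 3.34, 5.19 and 3.49 CPM, against 11.4 to 84.6 CPM in the same heterozygotes (-3.12 ± 0.57, adjusted p = 2.29e-05). Ilp8 stood at 63.5, 112 and 68.6 CPM, against 104 to 596 CPM (-1.84 ± 0.48, adjusted p = 0.00185), with 1 mutant library inside the range of the heterozygotes. In the same genotype muscle markers were higher for 7 of 7 genes (median 1.91) and hemocyte markers for 4 of 4 (median 3.87).

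With KG00226 as the partner, Dfsov differed from sovEA42 and sovML150, a comparison added after the values were seen. The change from heterozygotes was higher with Dfsov for 38 members and lower for 1, Dscam4 (-5.71 ± 0.57); 12.8% of all features were higher and 14.3% lower, and the members' median difference was 3.54. The 6 that passed in neither direction were Ilp8 (-0.39 ± 0.55), Nha1 (-0.05 ± 0.54), lncRNA:CR43250 (-0.13 ± 0.79), sosie, Ilp7 and CG13032. Ilp8 was also the least affected member in sovML150/KG00226, at 127 and 369 CPM in the 2 libraries (0.11 ± 0.50), where Nha1 changed by -0.21 ± 0.50 and the median of the 45 was -4.69. In NP6070/NP6070 the order was another: Ir7c, at 104, 103 and 66.6 CPM, against 78.9 to 103 CPM in its heterozygotes, changed by -0.05 ± 0.30, and sosie by 0.41 ± 0.47, while pwn fell by 2.32 ± 0.39 on the log2 scale (adjusted p = 7.27e-06). Setting the partner sov2 against KG00226 over the strong alleles gave 1 lower member, Femcoat (-2.40 ± 0.87, adjusted p = 0.0438; 8.21% of all features lower, 10.8% higher), a call lost without sovEA42/KG00226 replicate 3 (-0.36, adjusted p = 0.808). The count was 3 without sovEA42/sov2 replicate 3 and 0 without any 1 of the other 2 sovEA42/sov2, the 3 sovML150/sov2 or the 2 sovML150/KG00226 libraries. The members with the next largest differences between these partners were CG18088, CG32642 and CG4066 on the lower side and sosie, Fcp3C, CG13032 and CG10163 on the higher, and none of them passed.

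In a pair of members the lowest levels did not go with sterility. CG13032 had no count in any library of Dfsov/KG00226, sovEA42/KG00226 and the fertile KG00226/KG00226, nor in the mCherry RNAi libraries of da-Gal4 and nos-Gal4. Against 3 counts over the genotype, that made it at least 54.3-fold lower in Dfsov/KG00226, at least 42.6-fold lower in sovEA42/KG00226 and at least 27.3-fold lower in KG00226/KG00226 than in heterozygotes. In NP6070/NP6070, which is sterile, it was at 12.4, 10.9 and 7.11 CPM, within the 5.55 to 16.8 CPM of heterozygous libraries. Dscam4 was at 0.257, 0.260 and 0.0852 CPM in Dfsov/KG00226 and at 0 to 0.233 CPM in KG00226/KG00226, KG00226/sov2 and sov2/KG00226. CG13032 was low in these genotypes too, with means of 0.0697 CPM in KG00226/sov2 and 0.0540 CPM in sov2/KG00226. Unlike CG13032, Dscam4 reached 17.8, 22.5 and 25.4 CPM in the sterile sovEA42/KG00226, and it had 22.3, 25.4 and 21.8 CPM in KG00226/w1118. Its change was -7.02 ± 0.46 in Dfsov/KG00226 (adjusted p = 1.45e-16). These were also the only members whose fertile mutant means lay wholly below those of the heterozygotes (0.367% of all features tested), and for Dscam4 the gap was small, between 17.6 CPM in the highest fertile mutant and 17.9 CPM in the lowest heterozygote. Setting CG13032, or CG10163 in sovML150/KG00226 (no count, at least 44.8-fold lower), to these bounds left the medians above as they were.

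Ilp8, Nha1, Ilp7 and lncRNA:CR43250 were low together in single libraries of genotypes that were otherwise high. In KG00226/w1118 replicate 3 they had 114, 32.2, 9.36 and 15.3 CPM. In replicates 1 and 2 Ilp8 had 596 and 577 CPM, Nha1 132 and 122 CPM, Ilp7 58.8 and 61 CPM and lncRNA:CR43250 84.6 and 72.3 CPM. In the fertile sov2/KG00226, replicate 3 held 19.8 CPM of Ilp8 and 0.883 CPM of Ilp7, against 219 and 229 CPM and 9.56 and 9.19 CPM in the other replicates.

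With RNAi, members passed the threshold with tj-Gal4 and da-Gal4, and none did with nos-Gal4. Only Cad88C passed with both of the former, in opposite directions. A call with 1 driver alone does not show a difference between drivers, which is tested directly below. In libraries labelled tj-Gal4 sov RNAi 11 members were lower and none was higher than with mCherry RNAi (median -0.75), where 2.53% of all features were lower and 9.31% higher; 25 of the 45 were lower at an unadjusted p under 0.05, where 23.4% of all features passed in either direction. CG13114 had 253, 214 and 248 CPM with sov RNAi, against 637, 822 and 507 CPM with mCherry RNAi, with no overlap (-1.52 ± 0.29, adjusted p = 0.000981). For yellow-g2 the values were 278, 192 and 235 CPM with sov RNAi, against 530, 620 and 351 CPM with mCherry RNAi (-1.16 ± 0.27, adjusted p = 0.0056), and for CG4009 328, 172 and 227 CPM, against 484, 586 and 372 CPM (-1.06 ± 0.28, adjusted p = 0.0138). These eggshell genes did not overlap between the groups either, but the share of all features without overlap was not counted. Levels of yellow-g were 367, 237 and 402 CPM with sov RNAi, against 635, 807 and 459 CPM with mCherry RNAi (-0.98 ± 0.30, adjusted p = 0.041). Femcoat (-0.51 ± 0.33, adjusted p = 0.384) did not pass.

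The largest fall with tj-Gal4 was in CG4066, at 5.69, 2.41 and 10.9 CPM with sov RNAi, against 20.9, 27.2 and 31.7 CPM with mCherry RNAi (-2.14 ± 0.49, adjusted p = 0.00507). Next came the mucin-related Mur11Da, at 11.8, 36.6 and 28.1 CPM with sov RNAi, against 62.9, 99.0 and 83.9 CPM with mCherry RNAi (-1.67 ± 0.43, adjusted p = 0.0121). Muc4B (-1.12 ± 0.32, adjusted p = 0.0259), Ir7c (-1.25 ± 0.30, adjusted p = 0.00657), CG10163 (-1.29 ± 0.40, adjusted p = 0.0407), St4 (-0.95 ± 0.24, adjusted p = 0.0105) and Cad88C (-0.74 ± 0.18, adjusted p = 0.00775) were the others. The call for CG10163 was lost in 4 of 6 refits without 1 library. The number of lower members was 5 without mCherry RNAi replicate 2 and 6 without sov RNAi replicate 2. Ilp8 (-0.29 ± 0.42) and Nha1 (0.00 ± 0.27) gave no change past the threshold. In these libraries muscle markers were higher for 7 of 7 genes (median 3.49; summed 1814, 2384 and 1953 CPM, against 158, 146 and 217 CPM) and hemocyte markers for 3 of 3, with follicle cell markers lower for 1 and higher for 1 of 7; their part in the result was not tested.

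With da-Gal4, 3 members were lower and 1 was higher, against 11.0% of all features lower and 10.1% higher, and the median was 0.23. Ilp8 had 74.9, 41.1 and 86.5 CPM with sov RNAi, against 176, 188 and 297 CPM with mCherry RNAi, with no overlap (-1.77 ± 0.46, adjusted p = 0.0107). Nha1 had 23.1, 17.2 and 26.6 CPM, against 42.2, 43.1 and 66.7 CPM (-1.25 ± 0.32, adjusted p = 0.00911). The lncRNA:CR43250 had 4.72, 1.48 and 7.03 CPM, against 14.9, 16.1 and 34.6 CPM (-2.38 ± 0.60, adjusted p = 0.00815). The groups did not overlap for any of the 3 genes, but the share of all features without overlap was not counted. All 3 calls were lost without mCherry RNAi replicate 3, the highest library for each (adjusted p = 0.0626, 0.0712 and 0.0694). Cad88C was higher, at 21.0, 17.8 and 14.7 CPM, against 13.4, 9.02 and 8.34 CPM (0.74 ± 0.20, adjusted p = 0.0132). The number higher was 6 without mCherry RNAi replicate 1, 3 without sov RNAi replicate 3, and 0 without mCherry RNAi replicate 2 or 3 or sov RNAi replicate 1. In these libraries muscle markers were higher for 3 of 7 genes (median 0.61; summed 346, 477 and 290 CPM with sov RNAi, against 225, 298 and 271 CPM with mCherry RNAi) and none of 3 hemocyte markers passed (median 0.91). Germline markers were lower for 4 of 8 genes (median -0.31), and of 7 follicle cell markers 1 was higher; their part in the result was not tested.

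With nos-Gal4 no member passed in either direction, against 1.09% of all features lower and 1.53% higher; 5 of the 45 had an unadjusted p under 0.05, as did 12.6% of all features, and DESeq2 called 1 higher. Without mCherry RNAi replicate 3, 1 member was lower, and without sov RNAi replicate 2, 2 were. Ilp8 had 87.6, 198 and 89.9 CPM with sov RNAi, against 368, 443 and 213 CPM with mCherry RNAi, and did not pass (-1.48 ± 0.44, adjusted p = 0.0873). The others at that level were Nha1 (-0.98 ± 0.28, adjusted p = 0.076), lncRNA:CR43250 (-1.43 ± 0.52, adjusted p = 0.198), CG31661 (0.89 ± 0.24, adjusted p = 0.0524) and Cad88C (0.57 ± 0.19, adjusted p = 0.141).

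Tests of the difference between drivers were run in the same fit. Between da-Gal4 and nos-Gal4 no member differed in its response (0.506% of all features higher and 0.792% lower, 1 member at an unadjusted p under 0.05, as were 12.1% of all features): the difference was -0.29 ± 0.63 for Ilp8 and -0.28 ± 0.42 for Nha1. Without da-Gal4 mCherry RNAi replicate 1, 2 members were higher, and without da-Gal4 sov RNAi replicate 1, 1 was lower. The response with nos-Gal4 was higher than with tj-Gal4 for 3 members (0.688% of all features higher, 4.18% lower), CG13114, Ir7c and Cad88C. That number was 6 without replicate 3 of nos-Gal4 or tj-Gal4 mCherry RNAi, 5 without tj-Gal4 sov RNAi replicate 3, and 1 without replicate 2 of nos-Gal4 or tj-Gal4 mCherry RNAi, tj-Gal4 sov RNAi replicate 2 or nos-Gal4 sov RNAi replicate 1. Without nos-Gal4 sov RNAi replicate 2, 1 member was lower. The response with da-Gal4 was higher than with tj-Gal4 for 8 (3.39% of all features higher, 7.32% lower): these 3 and also yellow-g, yellow-g2, CG4009, CG4066 and St4. That number was 22 without da-Gal4 mCherry RNAi replicate 1 and 3 or 4 without replicate 2 or 3 of da-Gal4 mCherry RNAi, replicate 1 or 2 of da-Gal4 sov RNAi, replicate 1 or 2 of tj-Gal4 mCherry RNAi or tj-Gal4 sov RNAi replicate 2. Members lower numbered 3 without tj-Gal4 mCherry RNAi replicate 3, and 1 without da-Gal4 mCherry RNAi replicate 1 or da-Gal4 sov RNAi replicate 3.

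**Figure D5:**
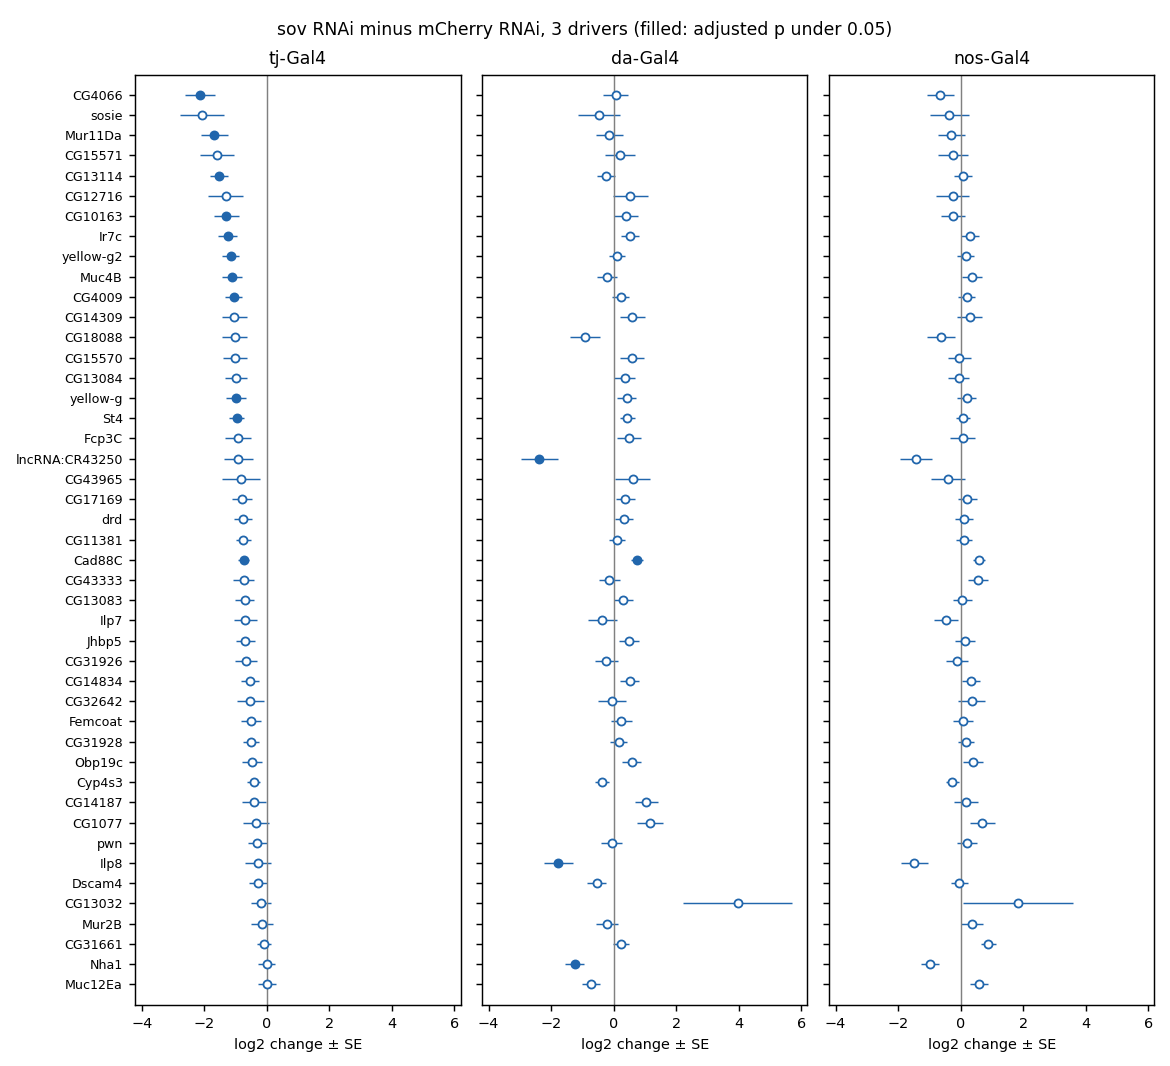
Log2 change ± SE of each of the 45 genes with sov RNAi against mCherry RNAi under each of 3 drivers, with filled points where the adjusted p was under 0.05. Filled points below 0 number 11 with tj-Gal4, 3 with da-Gal4 and 0 with nos-Gal4.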

How the data were processed

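Gene counts from stranded 50-base reads (release 6.21) were used as deposited, 1 table per library; per the submitters' processing notes, CASAVA 1.8.2, HISAT2 2.0.5 and HTSeq 0.7.2 were used. Between 12.6% and 63.1% of reads (median 18.5%) were in the deposited summary lines that name no gene and were left out of depths and tests. Spike-in lines were left out of depths and tests, and scaled only the members' summed level in an alternative. Transposable element lines were left out of depths but tested with the genes. CPM were computed here from the gene counts. No 2 libraries were identical. The labels do not say that the 3 samples of a genotype came from separate cultures, so p-values of the library fits measure the spread between these samples. In the fit on genotype sums, p-values measure the spread between genotypes of a class. The members, gene lists and comparisons were chosen with earlier results of these data known.

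Tests used edgeR 4.0.16 (limma 3.58.1, R 4.3.3): quasi-likelihood fits with TMM scaling and filterByExpr, Benjamini-Hochberg adjustment over all genes and elements tested, and a threshold of 0.05. They were run on 22 genotype sums (8457 features), on 64 libraries of the same genotypes (8701 features) and on 18 RNAi libraries (7700 features), and SE is the absolute log2 change over the square root of F. All 45 members passed filterByExpr in each fit, partly through the groups where they are high. Matched heterozygotes were weighted equally by allele, with both written orders averaged. The fits were checked on simulated data. Alternatives for the tests were DESeq2 1.42.0, its size factors in edgeR, no filter and no scaling factor. Others were a term for the spike-in pool (78A or 78B), the replicate number as a block, all libraries, and leaving out each library or genotype. Scaling by the spike-ins (ERCC) was applied to the members' summed level only, and to no test. Tables and figures used Python 3.11.15, pandas 2.3.3, numpy 2.4.6, scipy 1.17.1 and matplotlib 3.10.9. Coordinates and exonic lengths come from Ensembl release 115 (BDGP6.54, the release 6 assembly). Named members were those with the 10 highest w1118/w1118 levels, the extreme changes of the sterile class and of sov2 against KG00226, the largest with tj-Gal4, those in a gene list, at the limits or beside another member; Ilp8, Nha1, Muc12Ea, Mur2B, pwn, Obp19c, Jhbp5, CG43333 and others named by role were chosen after their values were seen. No sequence was used here.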

Additional observations from a re-analysis of the deposited data

Results flagged for a closer look

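In 138 groups of 6, 7 or 9 genotype means, of single members or of their sum, 2 held a value far from the rest, fewer than 1 in 20. The groups share the same genotypes and are not independent, so that share is not a measure of chance here. CG13032 averaged 10.1 CPM in NP6070/NP6070, above every other sterile genotype. CG17169 averaged 33.8 CPM in w1118/NP6070, above the other genotypes with a w1118 chromosome.

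The response to sov RNAi differed between drivers, by edgeR's quasi-likelihood test of the difference with Benjamini-Hochberg adjustment. With nos-Gal4 minus tj-Gal4, the log2 difference was 1.59 for CG13114 (adjusted p = 0.0244), 1.54 for Ir7c (adjusted p = 0.0344) and 1.31 for Cad88C (adjusted p = 0.00435). With da-Gal4 minus tj-Gal4, it was 1.40 for yellow-g (adjusted p = 0.0425), 1.28 for CG13114 (adjusted p = 0.0478), 1.27 for yellow-g2 (adjusted p = 0.0373), 1.29 for CG4009 (adjusted p = 0.0393), 1.76 for Ir7c (adjusted p = 0.00962), 2.2 for CG4066 (adjusted p = 0.0314), 1.38 for St4 (adjusted p = 0.0123) and 1.48 for Cad88C (adjusted p = 0.00126). The calls for Ir7c, St4 and Cad88C between da-Gal4 and tj-Gal4, and for Cad88C between nos-Gal4 and tj-Gal4, held without each of the 12 libraries in turn. Those for CG13114, yellow-g, yellow-g2, CG4009 and CG4066 between da-Gal4 and tj-Gal4 were lost in 9, 8, 8, 8 and 7 of the 12, and those for CG13114 and Ir7c between nos-Gal4 and tj-Gal4 in 4 and 9.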

How the results depend on the processing

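The rule gave 69 genes at 1/8, 34 at 1/32, 54 from 10 CPM, 35 from 50 CPM, 50 on TMM-scaled CPM and 42 with each Dfsov/sov2 replicate under the limit (the last chosen after seeing the data). The log2 difference between the sterile and heterozygous medians of the members' sum was -2.82, and -4.06 per spike-in count; with the 3 shallow libraries, an alternative added later, it was -2.10. In 43 single-gene results, 760 alternatives kept the outcome, called or not, 109 lost a call, 8 gained one and none reversed. The 43 include CG14187, Ir7c, Cad88C and Dscam4 in the sterile class, which had no call to lose. Without the filter on low counts, Dfsov/KG00226 had 26 lower and 3 higher members, tj-Gal4 38 lower, da-Gal4 7 lower and 15 higher, nos-Gal4 5 lower and 8 higher, sov2 against KG00226 3 lower and 1 higher, nos-Gal4 minus tj-Gal4 34 higher and 2 lower, da-Gal4 minus tj-Gal4 32 higher and 4 lower, and da-Gal4 minus nos-Gal4 5 each way; the unfiltered RNAi fit tested 12940 genes and elements. DESeq2 gave 6 lower for sov2 against KG00226, 5 higher for da-Gal4 minus tj-Gal4, 1 lower for the fertile class and 1 higher for nos-Gal4. The spike-in pool term gave 6 lower with tj-Gal4, 3 higher for da-Gal4 minus tj-Gal4 and 0 for sov2 against KG00226, which all libraries raised to 2. No scaling factor gave 3 higher with da-Gal4 and 1 with nos-Gal4. The cause of these moves was not tested. At the median, same-numbered samples did not deviate together (correlation 0.0008 over 651 pairs, -0.021 over 45 RNAi pairs). Single pairs ran from -0.369 to 0.339, with 63 over 0.1, and RNAi pairs from -0.272 to 0.317, with 11 over 0.1. The replicate block gave 2 higher members with da-Gal4 and moved no other count by over 1.5 times. Leaving out 1 library or genotype gave 36 to 43 lower in the sterile class, 0 to 1 in the fertile, 25 to 39 between them, 11 to 18 (0 to 3 higher) in Dfsov/KG00226, 36 to 43 in sovEA42/KG00226, 37 to 45 in sovEA42/sov2, 33 to 43 in sovML150/KG00226, 43 to 45 in sovML150/sov2, 27 to 36 in NP6070/NP6070 and 0 to 3 for sov2 against KG00226. With Dfsov against the other strong alleles 34 to 38 were higher. For RNAi it gave 0 to 4 lower and 0 to 6 higher with da-Gal4, 0 to 2 lower with nos-Gal4, 5 to 15 lower with tj-Gal4, 1 to 6 higher (0 to 1 lower) for nos-Gal4 minus tj-Gal4, 3 to 22 higher (0 to 3 lower) for da-Gal4 minus tj-Gal4, and 0 to 2 higher (0 to 1 lower) for da-Gal4 minus nos-Gal4. Depth limited the low members: 3 counts were 0.154 CPM over Dfsov/KG00226 and 0.499 CPM over the 2 libraries of sovML150/KG00226.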
